A study of Mus musculus with 7 samples.

Results

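The Slc25 genes encode the mitochondrial carriers, the largest family of solute transporters in mammals, and their chromatin was examined in LSK cells from WTAkita and Ctrl offspring. Members were all protein-coding mouse genes of the GENCODE annotation of mm10 whose symbol is Slc25a followed by digits, which gave 47 of 21938 protein-coding genes. The 4 WTAkita libraries came from genetically wild-type offspring of diabetic Ins2Akita/+ dams mated to C57BL/6 sires. The 3 Ctrl libraries came from offspring of normal pregnancies under a matching breeding scheme, in which wild-type littermates of the Akita females were the dams. In both groups the dams had been on a high-fat diet before mating, so both share that exposure, and the offspring were adult C57BL/6 mice, 8 to 12 weeks old. The Akita mutation acts through misfolded insulin in the maternal β cells and is not carried by the WTAkita offspring. LSK cells are the Lineage- c-Kit+ Sca-1+ fraction of bone marrow in which hematopoietic stem cells and early progenitors are found, and 50000 sorted cells went into each library. Sorting used pools of marrow cells. The sources used here do not state the mice per library, and p-values therefore refer to variation among libraries. A mixed sort gives an average, so that fewer cells with an open site and a less open site in each cell cannot be told apart.

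Carriers of this family share a fold of repeated membrane-spanning modules. Most sit in the inner mitochondrial membrane, where they exchange nucleotides, phosphate, di- and tricarboxylates, amino acids, cofactors and iron between cytosol and matrix. They are nuclear genes, and most of them serve pathways that nearly all cells run, such as ATP export, the malate-aspartate shuttle and heme and iron-sulfur cluster synthesis. A few are restricted to a tissue, among them the germline ADP/ATP carrier Slc25a31. In blood, the mitoferrin Slc25a37 and the glycine carrier Slc25a38 are known for their part in heme synthesis in red cell precursors. Hematopoietic stem cells are known to rely little on oxidative phosphorylation when quiescent.

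Accessible chromatin was measured by ATAC-Seq, which marks open DNA with a transposase. The authors made a list of peaks for each library, with the fold enrichment at the summit, that is the pile of tags divided by the local background, both with 1 added. The lists held 137963 to 151552 peaks, from an estimated 37600000 to 53100000 tags. The median fold enrichment was 5.25, 5.78, 6.32 and 6.59 in WTAkita replicates 1 to 4, and 5.79, 6.48 and 6.47 in Ctrl replicates 1 to 3. WTAkita replicates 1 and 2 and Ctrl replicate 1 were thus the lowest. Of 8 LSK marker genes, 8 had a promoter peak in all 7 libraries, Kit, Ly6a and Flt3 among them. Markers of other blood cells were less uniform, with Cd8a and Ms4a1 lacking a promoter peak in any library and Ly6g having 1 in WTAkita replicate 3 alone, while Cd3e, Cd14 and Hbb-bt had a peak in all 7. Alb, Ins2 and Myh6 had no promoter peak, and Gfap had 1 in all 7 libraries, so promoter peaks also occurred at genes known from other cells.

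A promoter peak was counted when any of its bases lay within 1000 bp of an annotated start of the gene, and the highest fold enrichment per gene and library was used. Of the 47 carriers, 41 (87.2%) had a promoter peak in all 7 libraries, beside 72.1% of all protein-coding genes. Slc25a18, Slc25a31, Slc25a34, Slc25a41 and Slc25a54 had none in any library, where 24.3% of protein-coding genes had none. Slc25a2 was the remaining carrier, with a peak in 3 libraries, where 3.54% of protein-coding genes had a peak in 1 to 6 libraries. The 41 members with a peak in all 7 libraries are the ones compared below, and members that failed this criterion were not part of that comparison.

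The ADP/ATP carriers include genes with and without a promoter peak, and their promoter sequences are shown. Slc25a4 and Slc25a5, which exchange ADP and ATP in somatic cells, had strong promoter peaks, and Slc25a31, their germline counterpart, had none. The 300 bases from 250 before to 50 after the RefSeq start are given for the 3 genes in GRCm38.p6, 5′ to 3′ on the strand of the gene. They lie at chr8:46211013-46211312 (minus strand) for Slc25a4, chrX:36795347-36795646 (plus strand) for Slc25a5 and chr3:40708621-40708920 (plus strand) for Slc25a31. Capitals mark the Sp/KLF letters GGGCGG, the NFY letters CCAAT, the GATA letters AGATAA and the E-box letters CACGTG, each on either strand.
Slc25a4: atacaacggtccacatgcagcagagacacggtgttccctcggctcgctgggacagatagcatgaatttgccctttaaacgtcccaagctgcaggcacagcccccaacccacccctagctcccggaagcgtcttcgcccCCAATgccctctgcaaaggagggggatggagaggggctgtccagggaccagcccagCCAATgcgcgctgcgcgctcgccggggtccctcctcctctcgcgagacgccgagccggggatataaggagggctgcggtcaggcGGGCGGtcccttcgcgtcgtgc
Slc25a5: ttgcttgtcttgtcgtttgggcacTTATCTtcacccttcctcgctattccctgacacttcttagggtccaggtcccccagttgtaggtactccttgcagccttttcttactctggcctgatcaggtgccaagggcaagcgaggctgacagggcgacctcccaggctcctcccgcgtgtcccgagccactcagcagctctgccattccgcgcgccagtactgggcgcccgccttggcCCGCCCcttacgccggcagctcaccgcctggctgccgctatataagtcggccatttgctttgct
Slc25a31: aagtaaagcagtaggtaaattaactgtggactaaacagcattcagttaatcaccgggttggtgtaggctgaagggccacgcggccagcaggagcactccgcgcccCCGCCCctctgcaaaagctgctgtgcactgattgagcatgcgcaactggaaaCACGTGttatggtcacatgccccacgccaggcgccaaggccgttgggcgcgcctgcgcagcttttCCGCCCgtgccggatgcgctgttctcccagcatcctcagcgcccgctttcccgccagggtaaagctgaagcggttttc
The window of Slc25a31 holds the same Sp/KLF letters as those of Slc25a4 and Slc25a5. The CpG observed to expected ratio of the 300 bp around the gene start was 0.83 for Slc25a31, the highest among the 6 carriers without a peak in all libraries, beside 0.48 for Slc25a4 and 0.79 for Slc25a5. A CpG-rich promoter and the absence of a peak occurred together in this gene.

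The other carriers without a promoter peak in all libraries had lower CpG observed to expected ratios than Slc25a31. Slc25a34, a carrier with no settled substrate, had a ratio of 0.039, the lowest of the family. Slc25a18, a glutamate carrier known mainly from brain, had 0.17. Slc25a41, which resembles the calcium-regulated ATP-Mg/phosphate carriers, had 0.34, Slc25a54 had 0.58 and Slc25a2 had 0.63. Over the 6 carriers without a peak in all libraries the median ratio was 0.46 and the median GC content 58.5%, beside 0.79 and 66.0% for the 41 carriers with peaks. The ratios overlapped, running between 0.039 and 0.83 in the 6 and between 0.2 and 1.1 in the 41. Among all protein-coding genes the medians were 0.16 and 46% without any peak, and 0.75 and 62.3% with a peak in all 7 libraries. The promoters of Slc25a34 (chr4:141623785-141624084, minus strand) and Slc25a18 (chr6:120773518-120773817, plus strand) are shown as the CpG-poor pair, with the letters above and the TATA letters TATAAA in capitals.
Slc25a34: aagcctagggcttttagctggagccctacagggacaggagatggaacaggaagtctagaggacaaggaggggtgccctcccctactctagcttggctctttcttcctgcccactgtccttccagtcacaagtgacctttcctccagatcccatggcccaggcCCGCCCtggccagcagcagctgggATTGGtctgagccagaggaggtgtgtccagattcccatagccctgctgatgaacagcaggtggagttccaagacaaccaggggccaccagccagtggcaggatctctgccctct
Slc25a18: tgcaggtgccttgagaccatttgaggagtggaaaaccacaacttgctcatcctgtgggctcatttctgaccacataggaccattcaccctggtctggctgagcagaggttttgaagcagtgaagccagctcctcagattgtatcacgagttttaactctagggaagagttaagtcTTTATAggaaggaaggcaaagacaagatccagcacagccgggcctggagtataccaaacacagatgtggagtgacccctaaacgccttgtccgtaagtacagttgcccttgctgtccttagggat
RefSeq promoter records matched 36 of the 47 members, 32 of them with a peak in all 7 libraries and 4 with none. Peaks were counted here at GENCODE starts, while the sequences are those at RefSeq starts. The Slc25a47 window, among the 32, lies 15083 bp from its GENCODE gene start, and around that RefSeq start only 3 libraries listed a peak. GGGCGG was found in 30 of the 36, and in 28 of the 32 with a peak, where 48.2% of all 16522 promoters and 62% of those with a peak in all 7 libraries held it. CCAAT was found in 17 of the 36 (38.8% of all promoters) and CACGTG in 6 (8.09%). The GATA letters occurred in Slc25a5 and Slc25a53 (9.7% of all promoters), the ETS letters CCGGAAGT in Slc25a20 (5.54%), the YY1 letters AAGATGGC in Slc25a3 (3.27%) and TATAAA in Slc25a18 (12.9%). The NRF1 motif was in none of the 36 and in 1.38% of all promoters. These are matches of letters in a fixed window and no measure of binding, and no string of letters searched contains another.

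**Figure D1:**
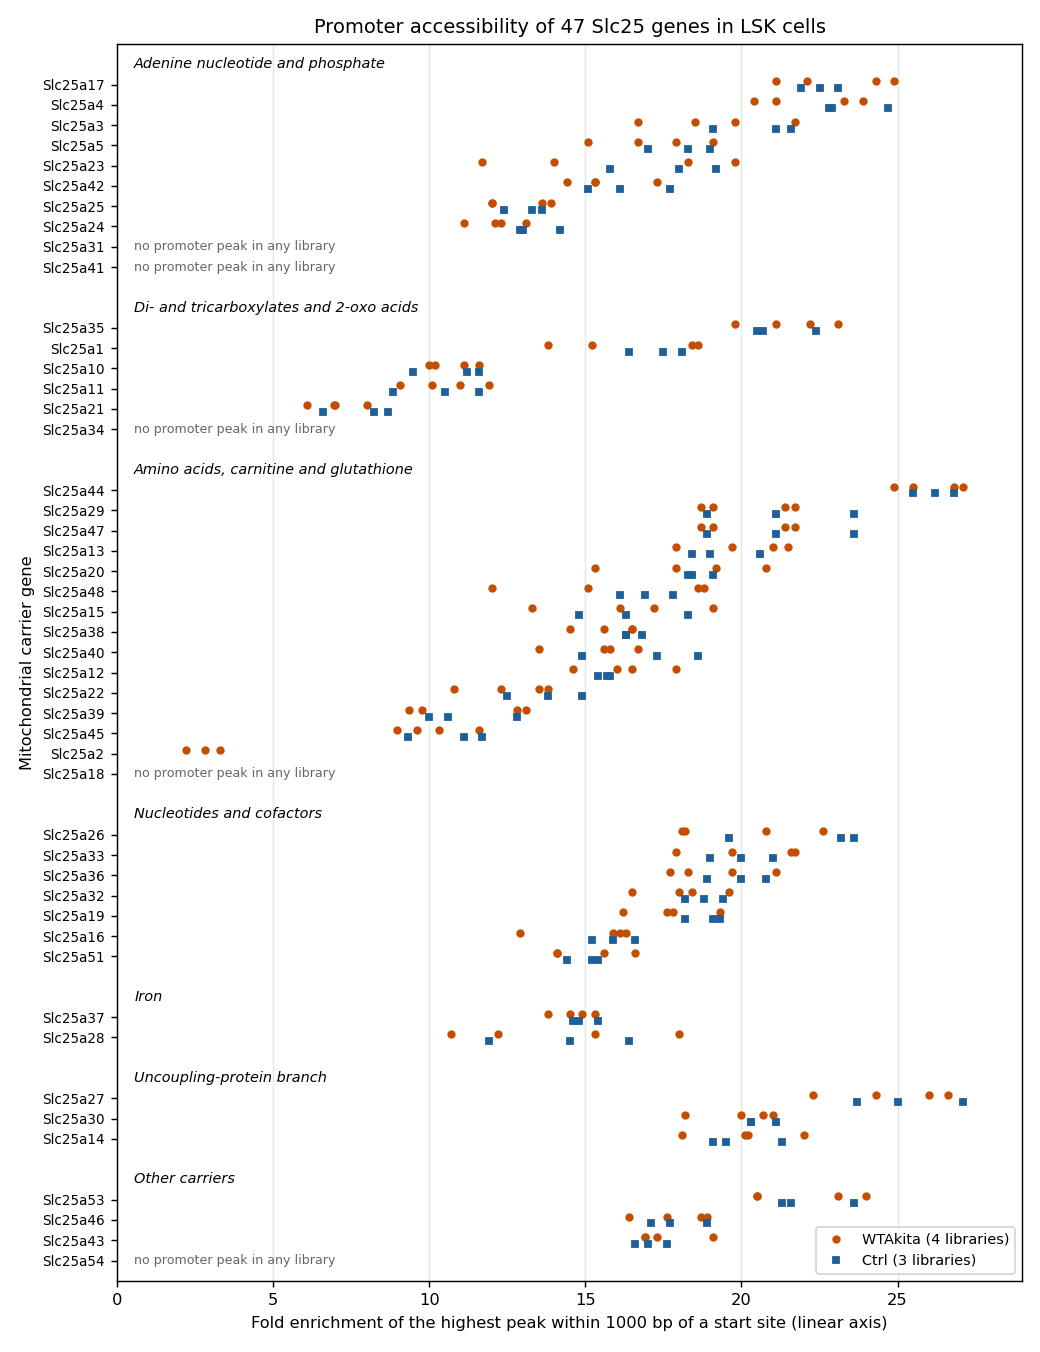
Fold enrichment of the highest promoter peak of each of the 47 carriers on a linear axis, with a circle for each of the 4 WTAkita libraries and a square for each of the 3 Ctrl libraries, grouped by the molecules carried. Slc25a44, at 24.9 to 27.1, stands highest on average, Slc25a2 has 3 WTAkita values between 2.22 and 3.3, and 5 genes have none.

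Among the carriers with a peak in all libraries, levels were above those of most promoters. The median carrier stood at percentile 66.8 of the 15825 promoters compared, by mean normalized level. The highest was Slc25a44, a carrier of branched-chain amino acids, at percentile 97.1. Slc25a44 had a fold enrichment of 24.9, 25.5, 26.8 and 27.1 in WTAkita libraries, against 25.5, 26.2 and 26.8 in Ctrl libraries. Slc25a27, the neuronal uncoupling protein also called UCP4, followed at percentile 95.7, with Slc25a4 at 90.8, the peroxisomal carrier Slc25a17 at 90.7 and Slc25a53, which has no settled substrate, at 88.4. The Slc25a27 peak is also within 1000 bp of the start of Cyp39a1, so its level cannot be assigned to Slc25a27 alone. Slc25a4, Slc25a17 and Slc25a53 differ in level by less than the spread between their libraries.

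The lowest level belonged to Slc25a21, the carrier of 2-oxoadipate and related acids, at percentile 11.8. Slc25a21 had a fold enrichment of 6.07, 6.96, 6.99 and 8.01 in WTAkita libraries, against 8.68, 6.61 and 8.24 in Ctrl libraries, with overlapping groups. Its summit was 796 bp downstream of the nearest start. The 2-oxoglutarate/malate carrier Slc25a11 (percentile 25.8), Slc25a45, listed here with the amino acid carriers (25.9), the dicarboxylate carrier Slc25a10 (27.6) and the glutathione carrier Slc25a39 (29.9) were next. The Slc25a11 peak lies within 1000 bp of the start of Rnf167. By role, the 5 di- and tricarboxylate and 2-oxo acid carriers with peaks had the lowest median, at percentile 27.6, and the 3 genes of the uncoupling-protein branch had the highest, at 82.0. Carriers of nucleotides and cofactors had 73.4, of adenine nucleotides and phosphate 65.7, of amino acids, carnitine and glutathione 61.4, and of iron 49.1. The 5 di- and tricarboxylate and 2-oxo acid carriers themselves ran between percentile 11.8, for Slc25a21, and 86.3, for Slc25a35.

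Fold enrichment and the height of the tag pile ranked the carriers differently. Scaled to the tags of its library, the pile at the summit put the median carrier at percentile 72.5. Slc25a42, a carrier of coenzyme A, had 510, 609, 600 and 748 tags at the summit in WTAkita libraries, against 672, 718 and 711 in Ctrl libraries, which placed it at percentile 99 by pile and 58.8 by fold enrichment. Slc25a37 had 486, 538, 565 and 635 tags in WTAkita libraries, against 571, 680 and 548 in Ctrl libraries, at percentile 96.1 by pile and 51.7 by fold enrichment. Slc25a53 had the reverse, with 162, 171, 196 and 200 tags in WTAkita libraries, against 183, 204 and 180 in Ctrl libraries, at percentile 36.8 by pile and 88.4 by fold enrichment. The local background at the summit separates these genes: it was 11.2 times the genome-wide background of the library at Slc25a42 and 10.8 times at Slc25a37 (medians of 7 libraries), but 2.04 times at Slc25a53. Over the 41 carriers the median was 4.96 times, beside 4.04 times over all 15825 promoters. The 2 measures had a Spearman correlation of 0.24 across the 41 carriers and of 0.58 across all promoters compared, which are descriptions across genes of the same libraries.

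**Figure D2:**
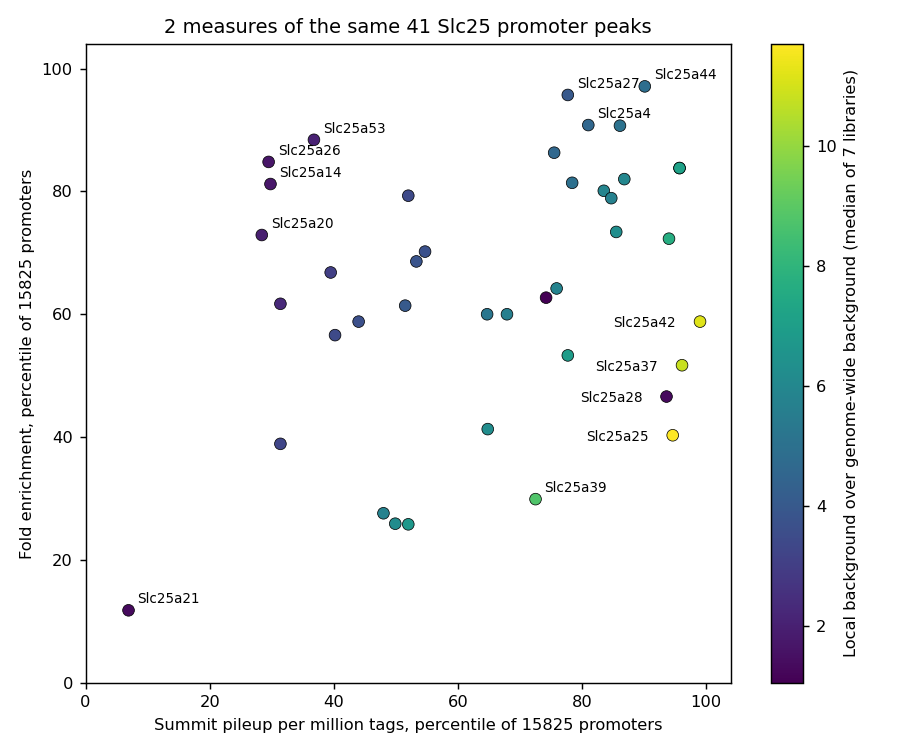
Each point is a carrier promoter with a peak in all 7 libraries, placed by the percentile of its summit pile, scaled to the tags of the library (x axis) and of its fold enrichment (y axis) among 15825 promoters, and coloured by the local over the genome-wide background. Slc25a42 and Slc25a37 lie far right at middle height, Slc25a53 lies high at percentile 36.8 of the pile, and Slc25a29 and Slc25a47 coincide.

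For several carriers the highest peak was not at the annotated gene start or was not theirs alone. In 31 of the 41 the median summit was within 200 bp of an annotated start of the gene. In 7 the summit was within 1000 bp of the start of another protein-coding gene, and Slc25a29 and Slc25a47 formed 1 such pair. They lie head to head and share a single peak, with a fold enrichment of 18.7, 19.1, 21.7 and 21.4 in WTAkita libraries, against 18.9, 21.1 and 23.6 in Ctrl libraries. Slc25a29 carries basic amino acids, and Slc25a47 is known from liver. The RefSeq start of Slc25a47 is 15083 bp from the GENCODE start, and around it a weak peak was listed in 2 WTAkita libraries (2.62 in replicate 1 and 3.06 in replicate 3) and in 1 Ctrl library (2.69 in replicate 1). These carriers therefore contribute the same values to the counts over the family. The shared promoter is shown on the Slc25a29 strand (chr12:108835827-108836126, minus strand), with GGGCGG and CCAAT on either strand in capitals.
Slc25a29: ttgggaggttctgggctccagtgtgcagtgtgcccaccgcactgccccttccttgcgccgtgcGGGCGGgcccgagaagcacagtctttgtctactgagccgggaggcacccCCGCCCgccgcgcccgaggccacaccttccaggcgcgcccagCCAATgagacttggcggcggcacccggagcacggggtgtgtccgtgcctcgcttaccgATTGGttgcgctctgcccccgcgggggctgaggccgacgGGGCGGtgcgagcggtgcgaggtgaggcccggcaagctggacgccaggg

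In Slc25a28 and Slc25a23 the highest peak changed place between libraries. Slc25a28 is mitoferrin 2, which imports iron in most cells, and Slc25a23 is a calcium-regulated ATP-Mg/phosphate carrier. The highest Slc25a28 peak was at -514 bp from the gene start in WTAkita replicate 1, with 424 tags. In the other 6 libraries it was 7321 to 7340 bp downstream, with 67 to 106 tags. The median summit of Slc25a28 was at -412 bp from the nearest annotated start. The highest Slc25a23 peak was at -469 bp in WTAkita replicate 1, with 294 tags, and 8039 to 8050 bp downstream in the other 6 libraries, with 76 to 92 tags. The median summit of Slc25a23 was 1005 bp from the nearest annotated start, just outside the window of 1000 bp. Taken at the RefSeq start alone, Slc25a28 had 10.7, 10.8, 11.5 and 11.5 in WTAkita libraries, against 11.1, 11.3 and 12 in Ctrl libraries, and Slc25a23 had 11.7, 11.4, 13.2 and 14.4 in WTAkita libraries, against 12.5, 12.6 and 13.3 in Ctrl libraries. The groups overlapped for both genes. Slc25a43 was counted through a peak whose summit was 1235 bp from its nearest start and which reaches into the window with its edge.

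The comparison of WTAkita with Ctrl asked whether the diabetic pregnancy left a difference in the promoters of these carriers in adult progenitors. Fold enrichments were put on a log2 scale, quantile-normalized across libraries and compared with limma over the 15825 promoters, with Benjamini-Hochberg adjustment. Of these promoters, 2 were called at an adjusted p under 0.05 (0.0126%), and neither belongs to a carrier. None of the 41 carriers was called by limma, with adjusted p = 0.999 for each, and none had an unadjusted p under 0.05, where 3.94% of all promoters did. The median difference was 0.0053 over the carriers and 0.006 over all promoters, and 21 carriers were above 0 and 20 below, beside 53.3% of all promoters above 0. With each of the 7 libraries left out in turn, 21 of the 41 carriers kept their sign throughout and 20 did not. Differences ran between -0.129 and 0.101, and 13.3% of all promoters lay farther from 0 than the most distant carrier. With the summit pile, scaled to the tags of the library, in place of fold enrichment, the median of all promoters was -0.1333 and that of the carriers -0.1457.

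In Slc25a13 alone the libraries of the groups did not overlap, with WTAkita higher, where 2.7% of all promoters did so. No carrier was lower without overlap, where 1.98% of all promoters were, and 4.68% had no overlap in either direction. Slc25a13, called citrin, is an aspartate/glutamate carrier of the malate-aspartate shuttle. Its fold enrichment was 17.9, 19.7, 21 and 21.5 in WTAkita libraries, against 18.4, 19 and 20.6 in Ctrl libraries. These deposited values overlap. After normalization Slc25a13 had log2 levels of 4.33, 4.38, 4.31 and 4.32 in WTAkita libraries, against 4.26, 4.17 and 4.31 in Ctrl libraries, so the lowest WTAkita and the highest Ctrl library were equal when rounded. The difference was 0.093 ± 0.051 (SE, limma, unadjusted p = 0.0967, adjusted p = 0.999). With the scaled summit pile it was -0.055, where the median of all promoters was -0.1333. Its promoter (chr6:6217124-6217423, minus strand) is given with the NFY and E-box letters in capitals, and it is among the 6 of 36 carriers that hold CACGTG.
Slc25a13: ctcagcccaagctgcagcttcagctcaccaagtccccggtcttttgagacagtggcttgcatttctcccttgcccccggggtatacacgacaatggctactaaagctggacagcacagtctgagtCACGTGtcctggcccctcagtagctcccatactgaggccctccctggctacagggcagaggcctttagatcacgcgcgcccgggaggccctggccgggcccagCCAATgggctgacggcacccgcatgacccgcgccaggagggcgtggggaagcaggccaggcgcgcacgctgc
Slc25a12, the other aspartate/glutamate carrier, had the highest difference of the family, 0.101 ± 0.077 (SE, limma, unadjusted p = 0.214). Its fold enrichment was 16.5, 14.6, 16 and 17.9 in WTAkita libraries, against 15.7, 15.4 and 15.8 in Ctrl libraries. The Ctrl values lie inside the WTAkita range. The Slc25a12 difference was 0.042 without WTAkita replicate 1 and -0.011 with a window of 2000 bp. With the scaled summit pile it was -0.086, where the median of all promoters was -0.1333. Slc25a43 came after it and Slc25a13, at 0.089 ± 0.067.

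The 3 lowest differences were those of Slc25a23, Slc25a21 and Slc25a26. The Slc25a23 difference of -0.129 ± 0.11 (SE) changed direction with the start that was read, and was 0.018 with the 5′ end of the gene alone and 0.109 with only summits inside the window. The Slc25a21 difference was -0.12 ± 0.12 (SE). Single Ctrl libraries decided its size, since it was 0.0 without Ctrl replicate 1 (limma, unadjusted p = 0.999) and -0.263 without Ctrl replicate 2 (unadjusted p = 0.0336, adjusted p = 0.999). Slc25a26, which imports S-adenosylmethionine, the methyl donor, had a fold enrichment of 18.1, 18.2, 22.6 and 20.8 in WTAkita libraries, against 19.6, 23.2 and 23.6 in Ctrl libraries. The groups overlap between 19.6 and 22.6, and the difference was -0.108 ± 0.058 (SE, limma, unadjusted p = 0.0917).

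**Figure D3:**
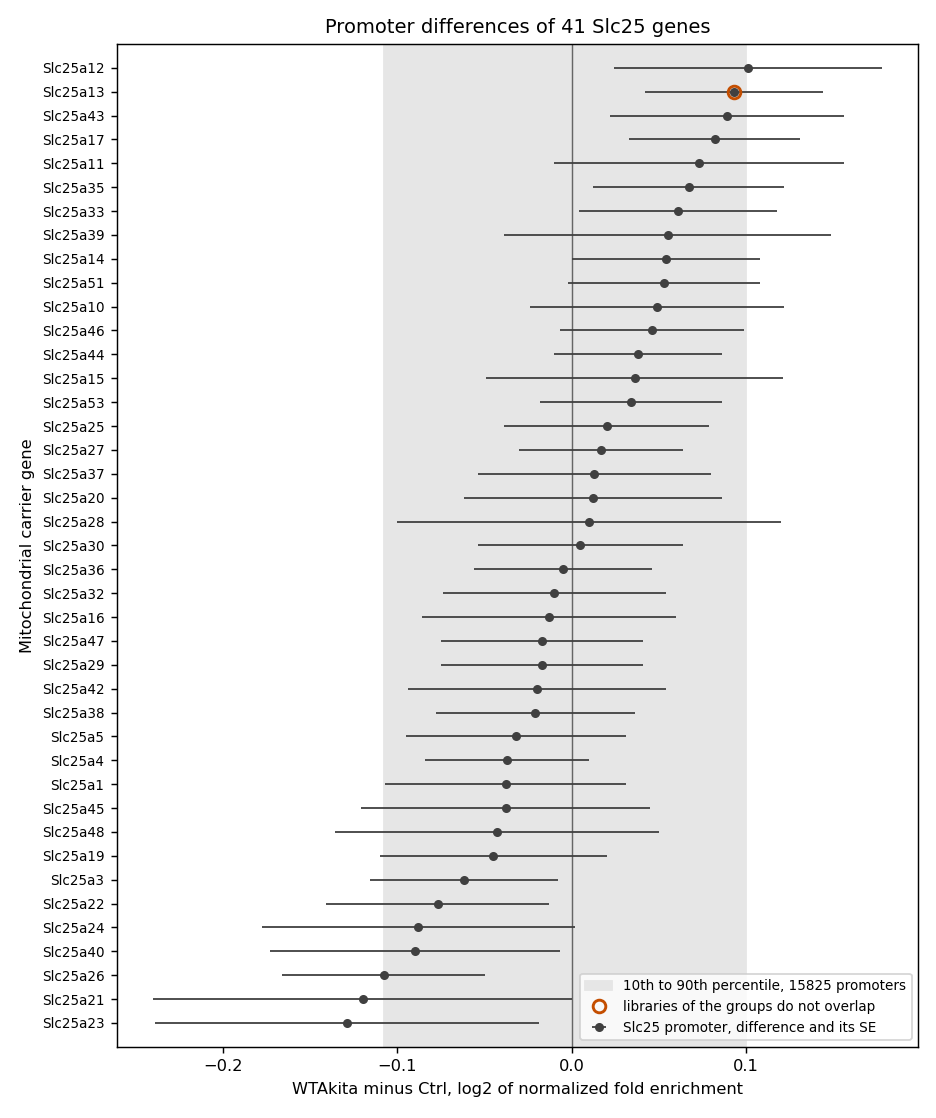
WTAkita minus Ctrl on the log2 scale of normalized fold enrichment for the 41 carriers with a promoter peak in all 7 libraries, with bars of 1 SE from limma, ordered by size. The grey band runs between the 10th and 90th percentiles of all 15825 promoters (-0.108 and 0.1), and the circled gene, Slc25a13, is the carrier whose groups do not overlap.

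The carriers that most cells need for ATP synthesis were close to 0. Slc25a4 had a fold enrichment of 20.4, 21.1, 23.3 and 23.9 in WTAkita libraries, against 22.9, 24.7 and 22.8 in Ctrl libraries, a difference of -0.037 ± 0.047 (SE). Slc25a5 had 16.7, 15.1, 19.1 and 17.9 in WTAkita libraries, against 17, 19 and 18.3 in Ctrl libraries (-0.032 ± 0.063). The phosphate carrier Slc25a3 had 16.7, 18.5, 21.7 and 19.8 in WTAkita libraries, against 19.1, 21.1 and 21.6 in Ctrl libraries (-0.062 ± 0.054). In each of these genes the lowest value was in WTAkita replicate 1 or 2, which also had the lowest median fold enrichment of all peaks. Without the 3 libraries of lowest median, Ctrl replicate 1 being the other, the differences were -0.027 for Slc25a4, -0.033 for Slc25a5 and -0.064 for Slc25a3. The Slc25a5 difference was 0.007 without WTAkita replicate 2. Of the 8 carriers of adenine nucleotides and phosphate with peaks, 2 were above 0 and 6 below, with a median of -0.0344 and none called.

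The citrate carrier Slc25a1, which exports citrate for lipid synthesis, had 15.2, 13.8, 18.4 and 18.6 in WTAkita libraries, against 16.4, 17.5 and 18.1 in Ctrl libraries. The WTAkita values span the Ctrl range, and the difference was -0.038 ± 0.069 (SE). Of the 13 amino acid, carnitine and glutathione carriers with peaks, 6 were above 0 and 7 below, and of the 7 nucleotide and cofactor carriers 2 were above and 5 below, with none called in either group. Slc25a38, the glycine carrier needed for heme synthesis, had a difference of -0.021 ± 0.057, and the glutathione carriers Slc25a39 and Slc25a40 had 0.055 ± 0.094 and -0.09 ± 0.083. Without Ctrl replicate 3 the Slc25a40 difference was -0.193 (limma, unadjusted p = 0.0196, adjusted p = 0.999) and that of Slc25a39 was 0.144, while Slc25a40 had -0.03 without Ctrl replicate 1 and Slc25a39 had -0.001 without Ctrl replicate 2. The Slc25a40 peak is within 1000 bp of the start of Dbf4. The NAD+ carrier Slc25a51 had 0.053 ± 0.055 (SE for each of these genes).

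Slc25a2, an ornithine carrier on chromosome 18, was the only carrier with a promoter peak in some libraries. The peak had a fold enrichment of 2.22, 3.3 and 2.83 in WTAkita replicates 1, 3 and 4, and no peak was listed in WTAkita replicate 2 or in the 3 Ctrl libraries. It was weak where it was listed, with 10 to 13 tags at the summit. Presence in 3 of 4 WTAkita and 0 of 3 Ctrl libraries gave p = 0.143 in Fisher's exact test (two-sided), and 0.105% of all protein-coding genes had a promoter peak in at least 3 WTAkita and no Ctrl library. With unlisted peaks set to a fold enrichment of 1, the Slc25a2 difference was 1.067 (limma, unadjusted p = 0.0407) and was not called. Slc25a2 entered this fit through WTAkita libraries alone, and every Ctrl value was the set value of 1. This result and Fisher's test both rest on which libraries listed the peak. Neither is a measured difference in accessibility. A pile just under the calling threshold is not listed, so the absence of a peak is not the absence of tags.

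The mitoferrins supply iron to heme and iron-sulfur cluster synthesis. Slc25a37, mitoferrin 1, had a promoter fold enrichment of 14.5, 13.8, 14.9 and 15.3 in WTAkita libraries, against 14.6, 14.8 and 15.4 in Ctrl libraries. The range was narrow and the groups overlapped, with a difference of 0.013 ± 0.067 (SE), and Slc25a28 had 0.01 ± 0.11. The genes whose promoter levels over the 7 libraries were closest to those of Slc25a37, by Euclidean distance of the normalized log2 values, were Sgk3 (0.058), Ndel1 (0.066), Vps11 (0.067), Napa (0.087) and Rack1 (0.093), where the median distance was 1.152. Among the carriers Slc25a51 was closest, at 0.155.

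Slc25a37 also had more peaks inside the gene than most carriers. Its gene body held 9, 10, 10 and 9 peaks in WTAkita libraries, against 10, 8 and 7 in Ctrl libraries. The strongest of its body sites (chr14:69267087-69268082 in mm10) was 17768 bp downstream of the start and 26955 bp from the start of the nearest other coding gene. This site had a fold enrichment of 15.7, 17.8, 19.9 and 20.9 in WTAkita libraries, against 14.4, 21.1 and 15.6 in Ctrl libraries, with the highest value in a Ctrl library. The difference was 0.21 ± 0.097 (SE, limma over 108032 sites, unadjusted p = 0.0471, adjusted p = 1.0). Leaving out Ctrl replicate 3 gave 0.135, and leaving out Ctrl replicate 2 gave 0.337. A second site, 36333 bp downstream, had 10.9, 13.3, 12.9 and 16.2 in WTAkita libraries, against 8.48, 15.7 and 15.1 in Ctrl libraries. The site at the 3′ end of the gene, 43438 bp downstream, had 8.21, 10.6, 11.6 and 11.6 in WTAkita libraries, against 9.67, 11.9 and 12.9 in Ctrl libraries. These 3 sites were present in all 7 libraries and stood at percentiles 87.2, 72.5 and 64.3 of the sites compared.

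**Figure D4:**
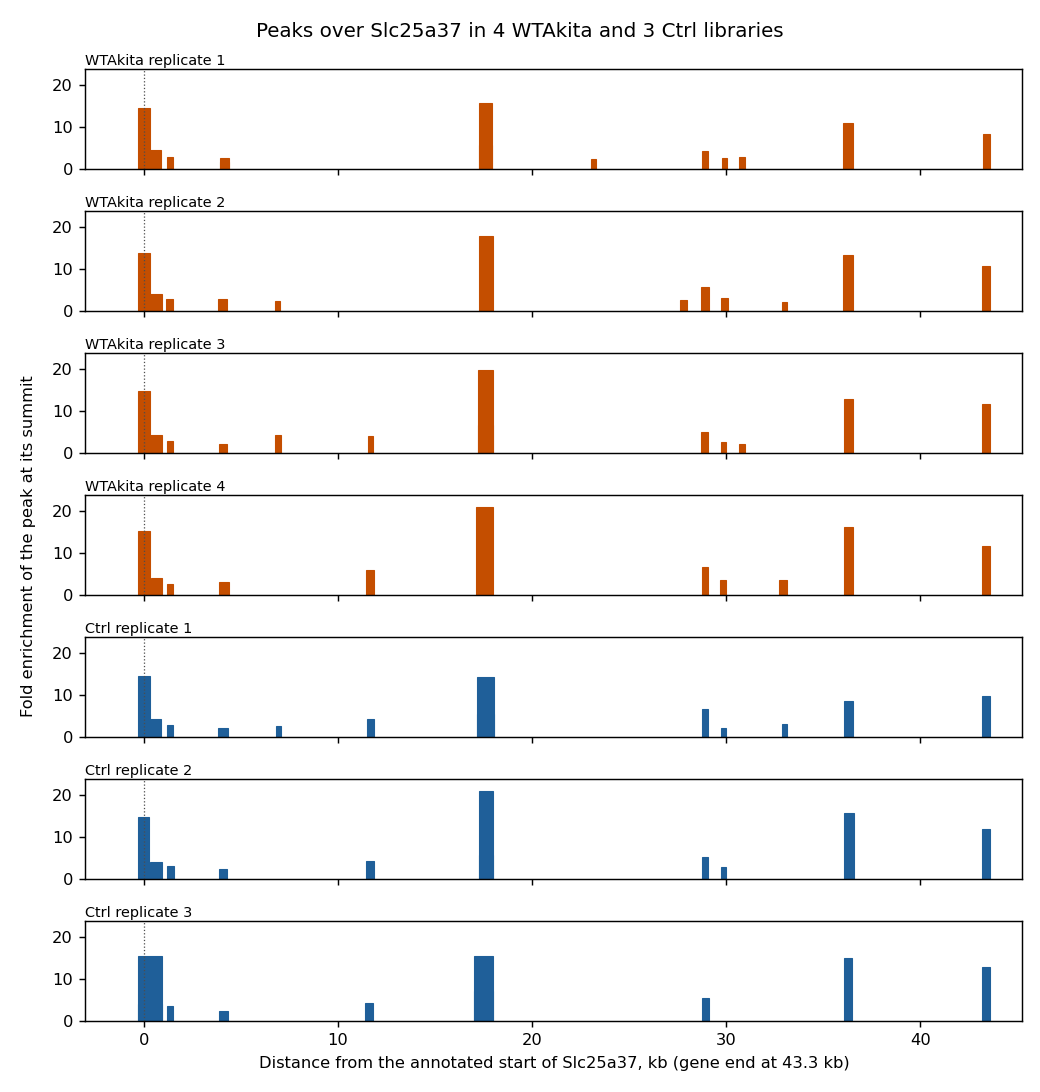
Peaks over Slc25a37 in the 4 WTAkita libraries (upper panels) and the 3 Ctrl libraries (lower panels), drawn to scale against the distance from the gene start in kb, with bar width the width of the peak and height its fold enrichment. The promoter peak and the site near 18 kb recur in every panel, and the weaker peaks differ between libraries.

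Over the family, peaks that overlapped a carrier gene but lay outside 1000 bp of its starts were joined into 115 body sites in 34 of the 47 genes. Of these sites, 61 were present in all 7 libraries, in 27 genes, 33 in 2 to 6 libraries and 21 in 1 library. Among the 115, 8 lay within 1000 bp of the start of another coding or noncoding gene. The strongest was in Slc25a15, the ornithine carrier of the urea cycle, 21539 bp downstream of the start (chr8:22376752-22377330) and at percentile 99.9 of all sites compared. It had a fold enrichment of 24.4, 26.6, 36.4 and 35.8 in WTAkita libraries, against 31.2, 33.6 and 37.6 in Ctrl libraries, above the promoter peak of Slc25a15 in each library, at 13.3, 16.1, 19.1 and 17.2 in WTAkita and 16.3, 18.3 and 14.8 in Ctrl. The groups overlapped at this site, with a difference of -0.111 ± 0.087 (SE, limma, unadjusted p = 0.223). The 200 bases around the summits of this site, the strongest of the family, and of the Slc25a37 site described above are shown, at chr8:22376947-22377146 and chr14:69267254-69267453 on the plus strand of GRCm38, centred on the summit of the library with the highest fold enrichment, with the 20 bases there in capitals.
Slc25a15 site: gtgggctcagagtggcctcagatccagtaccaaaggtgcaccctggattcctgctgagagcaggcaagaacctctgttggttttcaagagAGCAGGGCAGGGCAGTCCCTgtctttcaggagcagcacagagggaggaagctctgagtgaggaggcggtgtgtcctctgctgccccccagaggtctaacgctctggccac
Slc25a37 site: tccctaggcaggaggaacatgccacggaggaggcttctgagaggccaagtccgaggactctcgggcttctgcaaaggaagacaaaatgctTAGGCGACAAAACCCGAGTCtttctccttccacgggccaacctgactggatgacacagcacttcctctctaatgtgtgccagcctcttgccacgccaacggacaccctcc
Neither window holds the GATA letters AGATAA or the ETS letters CCGGAAGT on either strand. Of the 61 body sites in all 7 libraries, 8 held AGATAA and 1 held CCGGAAGT in the 200 bases around the summit, beside 7.79% and 1.12% of all 108032 sites.

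The next strongest body sites were in Slc25a53 (52111 bp downstream, percentile 95.9), in Slc25a30, also called KMCP1, a relative of the uncoupling proteins (25861 bp, percentile 93.0), and in the ATP-Mg/phosphate carrier Slc25a24 (42247 bp, percentile 91.4). The Slc25a30 site had a fold enrichment of 11.9, 18.5, 22.4 and 24.2 in WTAkita libraries, against 18.1, 25.4 and 24.1 in Ctrl libraries. WTAkita replicate 1 was the lowest there, and the groups overlapped. A site of like level in Slc25a35 (percentile 91.5) lies 17 bp from the start of Rangrf, and likewise the body site of Slc25a34 lies 35 bp from the start of Tmem82, so both lie at starts of neighbouring genes. Of the carriers without a promoter peak, Slc25a18 had a site in all 7 libraries, 15476 bp downstream, at 8.28, 8.95, 11 and 13.8 in WTAkita libraries, against 8.13, 11.1 and 10.8 in Ctrl libraries. Slc25a41 had 1 in all 7, at 3.95, 6.24, 7.63 and 6.97 in WTAkita libraries, against 6.48, 7.45 and 7.18 in Ctrl libraries. Slc25a31 had no peak in its body in any library, and Slc25a54 had 1 in WTAkita replicate 3 alone.

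No body site of a carrier was called by limma with adjustment over all 108032 sites, of which 0 were called (0.0%) and 3.86% had an unadjusted p under 0.05. Of the 61 carrier sites 2 were higher and 4 lower in WTAkita at an unadjusted p under 0.05, and 1 was higher and 2 lower with groups that did not overlap, where 2.45% and 2.26% of all sites were, or 4.71% in either direction. The differences were above 0 at 27 of the 61 and below 0 at 34, beside 52.1% of all sites above 0. At gene level, with the highest body peak per gene, 1 of 10965 genes was called (0.00912%), and it is not a carrier. The site of Slc25a17 14468 bp downstream had 6.05, 5.51, 5.65 and 7.84 in WTAkita libraries, against 7.86, 8.32 and 8.96 in Ctrl libraries, a difference of -0.364 ± 0.16 (SE, limma, unadjusted p = 0.0354). The site of Slc25a24 6701 bp downstream had 9.88, 12.9, 13.9 and 14.8 in WTAkita libraries, against 13.4, 18.4 and 15.4 in Ctrl libraries (-0.221 ± 0.099, unadjusted p = 0.0426). The deposited values of Slc25a17 do not overlap, and those of Slc25a24 overlap before normalization. The site with the reverse direction, in Slc25a30 1440 bp downstream, was weak, at 2.84, 3.26, 3.41 and 3.37 in WTAkita libraries, against 2.09, 2.99 and 2.93 in Ctrl libraries (0.329 ± 0.15, unadjusted p = 0.0512).

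The largest differences were at 2 sites of Slc25a27 and ran in opposite directions. The site 21945 bp downstream had 6.25, 9.12, 11.3 and 8.71 in WTAkita libraries, against 3.52, 7.55 and 8.71 in Ctrl libraries (0.574 ± 0.23, limma, unadjusted p = 0.025). Ctrl replicate 1 was the lowest there, and without it the difference was 0.233 (unadjusted p = 0.203). The site 17015 bp downstream had 3.03, 5.7, 4.47 and 5.01 in WTAkita libraries, against 6.83, 6.77 and 6.47 in Ctrl libraries (-0.549 ± 0.2, unadjusted p = 0.0135). In Slc25a12 the site 13994 bp downstream had 4.64, 6.65, 5.42 and 6.75 in WTAkita libraries, against 6.21, 10.5 and 8.96 in Ctrl libraries (-0.458 ± 0.17, unadjusted p = 0.0184). The deposited values of the Slc25a27 site 17015 bp downstream do not overlap, but the normalized ones do. Each of these sites had an adjusted p of 1.0 in limma. The next highest difference after that of Slc25a30 was 0.304 in both Slc25a51, 12362 bp downstream (SE 0.19, unadjusted p = 0.136), and Slc25a15, 15628 bp downstream (SE 0.18, unadjusted p = 0.121).

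The number of body peaks was compared as well. Carrier bodies held 81, 82, 89 and 86 peaks in WTAkita libraries, against 83, 92 and 77 in Ctrl libraries. Per 100000 peaks of a library this was 58.4 ± 0.32 in WTAkita (SD, n = 4) and 58.3 ± 4.1 in Ctrl (SD, n = 3), a difference of 0.113 (exact permutation test over 35 splits, two-sided, p = 0.886). The smallest p this design allows is 0.0286. The difference is smaller than the spread between Ctrl libraries, and leaving out Ctrl replicate 3 gave -1.99, leaving out Ctrl replicate 2 gave 2.09.

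Genes that import the carriers into mitochondria and other transport genes of the organelle were read beside the family. All 13 genes of carrier import, which includes the TOM and TIM translocase subunits Tomm20, Tomm70a, Timm9, Timm10 and Timm22, had a promoter peak in all 7 libraries, with a median difference of 0.0014 and none called. The 22 genes of other mitochondrial transport, among them the pyruvate carriers Mpc1 and Mpc2, the calcium uniporter Mcu and the sideroflexins, had a median difference of 0.0302. Of these 22, 16 were above 0 and none was called, beside 53.3% above 0 and 0.0126% called among all promoters. The outer membrane channel Vdac3 had 12.8, 12.3, 14.6 and 13.7 in WTAkita libraries, against 11.1, 13.3 and 12 in Ctrl libraries (0.193 ± 0.069, limma, unadjusted p = 0.0177, adjusted p = 0.999). Mcub, an inhibitory subunit of the uniporter, had 11.9, 12.3, 13.6 and 16.3 in WTAkita libraries, against 11.7, 12.1 and 12.7 in Ctrl libraries (0.193 ± 0.073, unadjusted p = 0.0228, adjusted p = 0.999). These were the 2 genes of that list with an unadjusted p under 0.05, where 3.94% of all promoters had one. After normalization the groups did not overlap in Vdac3, Mcub and Sfxn2, or in Timm10b of the import list, with WTAkita higher in each. Of all promoters, 2.7% did so. Of the relatives that the symbol rule leaves out, Ucp1, Ucp2, Mtch1 and Mtch2 had a promoter peak in all 7 libraries and Ucp3 had none.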

How the data were processed

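ATAC-Seq peak lists of 4 WTAkita and 3 Ctrl libraries were used. The submitters' processing notes name Trim Galore 0.4.2, cutadapt 1.9.1, Bowtie2 2.3.4.1 (mm10) and MACS2 2.1.4, with which the authors called peaks library by library and with no input. As deposited, the fold enrichment (a ratio to local background) carries no scaling across libraries, so depth and signal to noise can move it. Both −log10 columns deposited (p-value and q-value) grow with depth. A score column was also deposited and was not used.

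Summit tags were solved from fold enrichment and p and were whole, to within 0.02 tags, in at least 99.991% of peaks. Tag numbers were estimated from the background, with tags of 150 bp on a mappable genome of 1870000000 bp. Genes and starts came from GENCODE, promoters from RefSeq (GRCm38.p6) and windows around summits from the GRCm38.p6 genome. Peaks sharing a base were joined into sites. Values present in all 7 libraries were compared in R 4.3.3 by limma 3.58.1, using its trend option, a step tested on simulated data. Other steps used Python 3.11.15, pandas 2.3.3, numpy 2.4.6, scipy 1.17.1 and samtools 1.23.1. All pairs of libraries differed by more than sampling noise (mean chi-square 2.28 to 4.82 over 15825 promoters), and each was counted once. That measure cannot show whether the libraries came from separate mice.

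Named members were those without a peak in all libraries, those whose groups did not overlap, the 5 highest and 5 lowest levels, the 3 largest and 3 smallest differences and members named for their role. For body sites they were the 5 strongest and the 3 largest differences in each direction. The members, lists and rules were chosen with earlier results of these data known. Alternatives covered normalization, the value of a peak, thresholds, windows, GC content, the test, the replicate number and each library left out. RNA-seq and bisulfite data were not analysed here. Some marker genes of other blood cells are not reported here.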

Additional observations from a re-analysis of the deposited data

Results flagged for a closer look

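Of the carriers, 3 had 1 WTAkita library far from the other 3 in normalized log2 promoter level. There were 42 comparisons of this kind, for the 41 promoter levels and for the carrier body peaks per 100000 peaks. Slc25a29 and Slc25a47 entered with the same values. Chance would place about 1 in 20 outside. Slc25a1 had 3.87 in WTAkita replicate 2, with 4.09 to 4.13 in the other WTAkita libraries. Slc25a42 had 3.86 in WTAkita replicate 3, with 4.01 to 4.02 in the others. Slc25a27 had 4.69 in WTAkita replicate 2, with 4.63 to 4.64 in the others, a gap that is small beside the spread of the Ctrl libraries.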

How the results depend on the processing

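None of the 41 carriers was called under any of the 22 settings for promoters, and 41 or 42 carriers had a value in each. The median carrier difference of 0.0053 was -0.1457 with the scaled summit pile, where that of all promoters was -0.1333, no carrier was above 0 and 19 of the 41 were above that shift, and -0.0419 without normalization, where that of all promoters was -0.0399. It ran between -0.0096 and 0.0201 with each library left out. Slc25a13 had groups without overlap in 20 of the 22 settings, the exceptions being no normalization and the summit pile. Several of these settings use the same normalized values or only leave libraries out, which can hardly make the groups overlap. The count is therefore not 20 separate checks. In the main setting 2.7% of all promoters had groups without overlap and WTAkita higher.

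No named body site was called under any of 14 settings. The Slc25a27 site 21945 bp downstream ran between 0.233 and 0.805, the one 17015 bp downstream between -0.709 and -0.429, and the Slc25a12 site 13994 bp downstream between -0.718 and -0.342.

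Counts over all genes changed more. Promoter calls, 2 in all, were 8 with the summit pile, 4 without the 3 libraries whose median fold enrichment was lowest, and 0 with windows of 500 or 2000 bp, with the 5′ end of the gene alone or with the summit in the window, and 2 to 14 with each library left out. The count of 14 came without WTAkita replicate 4. Body calls, 1 in all, were 9 with the summit pile, 0 without the trend, 0 with a peak in at least 1 library, 0 without the 3 lowest libraries, and 0 to 3 with each library left out. Site calls, 0 in all, were 0 to 7 with each library left out. With peaks of −log10 p of at least 5, the difference in body peaks per 100000 was -1.76 in place of 0.113 (exact permutation p = 0.229), and it ran between -1.99 and 2.09 with each library left out.

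Replicate numbers are shared between the groups, and the labels do not say what a shared number stands for. Deviations of same-numbered libraries had correlations of 0.27, 0.019 and 0.1, and those of other pairs ran between -0.21 and 0.12. Whether same-numbered libraries share a batch was not tested, and the main comparison treated libraries as unpaired. With the replicate number as a block, promoter calls were 12 and site calls 6, none of them a carrier, the body calls stayed at 1, and the carrier median was 0.0201. WTAkita replicate 4 has no Ctrl library of its number, so in that fit it adds nothing to the difference between groups. The carrier median was also 0.0201 with WTAkita replicate 4 left out. The weak Slc25a2 peak, with 10 to 13 tags, was listed in WTAkita replicates 1, 3 and 4. Their estimated tags were 49300000, 40500000 and 44800000. Libraries that did not list it had 53100000 (WTAkita replicate 2) and 47800000, 51900000 and 37600000 (Ctrl replicates 1 to 3). Whether depth decided where it was listed was not tested.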

Other observations

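The gene bodies of the aspartate/glutamate carriers held several accessible sites in these libraries. Slc25a12, at chr2:71271063-71367749 in mm10, had 6 to 9 body peaks per library. Its site 29506 bp downstream of the start, with a fold enrichment of 16.9, 18.1, 20.8 and 19.2 in WTAkita libraries, against 17.4, 20.4 and 20.9 in Ctrl libraries, exceeded the promoter peak in each of the 7 libraries. Sites 40524 and 93404 bp downstream were at percentiles 81.8 and 87.4 of all sites. Of the 3, the one closest to the start of another coding gene is 13798 bp from it. Slc25a13, which spans 175956 bp, had 6 to 8 body peaks per library, the strongest 67719 bp downstream, at 14.7, 14.2, 22.8 and 21.3 in WTAkita libraries, against 17.8, 17 and 18.9 in Ctrl libraries. Both this site and the Slc25a12 sites 29506 and 40524 bp downstream hold the letters AGATAA within the 200 bases around the summit.

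The longest carrier gene did not hold the most body peaks. Slc25a21, which spans 484839 bp, had 3 or 4 body peaks per library, fewer than Slc25a37 within 43265 bp. The promoter of Slc25a26 had a local background of 1.65 times the genome-wide level, and its body held a site at the 3′ end, 696 bp from the start of Lrig1, at 10.5, 12.2, 20.7 and 17.2 in WTAkita libraries, against 14.7, 19.7 and 19.2 in Ctrl libraries.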
